A study of Mus musculus with 10 samples.

Results

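Krüppel-like factors are zinc finger proteins that bind GC-rich DNA, and several of them steer the step from preadipocyte to fat cell. The 10 family members described here are Klf4, Klf5, Klf6, Klf9, Klf13 and Klf15, reported to promote adipogenesis, Klf2, Klf3 and Klf7, reported to restrain it, and Klf10, a gene induced by TGF-beta. Their messages were examined for N6-methyladenosine (m6A), the internal mRNA mark that is written by the METTL3 complex, removed by the demethylases FTO and ALKBH5, and read by proteins that influence stability and translation. The members were found by position, as peaks with both ends inside annotated exons of the gene on its own strand (mm10). Of the 10 genes, 4 carried at least 1 peak in any list, against 16.5% of all protein-coding genes, expressed or not. Klf9 and Klf13 were marked in every list, Klf5 was marked in all lists but that of the preadipocytes (by the GENCODE gene model), and Klf2 was marked in 2 lists of DMSO cells. No peak lay in an exon of Klf3, Klf4, Klf6, Klf7, Klf10 or Klf15 in any list.

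Members of the family act in relays during adipogenesis. Klf4 helps to start Cebpb, the C/EBP proteins then turn on Klf5, and Klf5 joins them at the promoter of Pparg, the central regulator of fat cells. Klf9 and Klf13 also act on Pparg, Klf6 lowers the preadipocyte factor Dlk1, Klf15 raises the glucose transporter gene Slc2a4, Klf2 represses Pparg, and Klf3 works with CtBP corepressors to hold down Cebpa. These roles are background from earlier work and were not measured here.

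The mark was mapped by MeRIP-seq, in which an antibody against m6A captures fragments of RNA (the IP) and places where their reads outnumber those of the starting RNA (the input) are called as peaks. The cells were 3T3-L1, a mouse fibroblast line that turns into fat-storing cells after confluent cultures receive the MDI hormone mixture. The 10 libraries, 5 IP and 5 input, formed 5 conditions. Cells given the solvent DMSO were labelled as preadipocytes (DMSO Pre), as preadipocytes in mitotic clonal expansion, the round of division that follows induction (DMSO MCE), and as mature adipocytes (DMSO Diff). Cells given 20 µM rhein, an anthraquinone from rhubarb reported to inhibit FTO, from day 0 to day 3 carried the same labels at the later stages (rhein MCE and rhein Diff). Each condition had 1 IP and 1 input, so that no difference between conditions could be set against a spread between cultures, and every comparison below is a description without a test.

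The deposited lists held 2824 peaks for DMSO Pre, 5128 for DMSO MCE, 2944 for DMSO Diff, 3069 for rhein MCE and 3071 for rhein Diff, with no read numbers, so that the depth behind a peak is unknown. The rhein lists shared 3067 identical spans. They also held the same 11 peaks in the Klf genes, with scores at most 0.0379 apart, and were therefore counted as 1 sample, given by the rhein MCE list. Which stage that sample stands for is not known. The name rhein MCE below means the list so labelled, and its comparison with DMSO MCE may not be one within a stage. Peaks were also looked for in marker genes. None of 7 adipocyte markers (Pparg and Adipoq among them), 4 macrophage markers or 3 endothelial markers carried a peak in any list. Of 7 preadipocyte or fibroblast markers, 6 did, against 16.5% of all protein-coding genes. By list these numbered 4 at DMSO Pre, 4 at DMSO MCE, 4 at DMSO Diff and 3 at rhein MCE, so their number did not tell the stages apart. The genes behind the number differed. Pdgfra was in every list, Col1a1 at DMSO Pre alone, and Thy1 in every list but DMSO Pre. The lists hold no RNA levels, so the adipocyte label of DMSO Diff could not be checked.

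Short sequences from the peak stretches are shown first. Each is 26 to 30 bases of the mouse mRNA, 5′ to 3′, from the GENCODE M21 transcripts of GRCm38 (mm10). Capitals mark GGAC, a common core of m6A sites, in the copy nearest the middle of the peak stretch and in any further copy in the same window, or, in the second Klf5 line, a run of G. The set was chosen to show the stretches that recurred across lists and those that set the rhein lists apart. Except for the run of G, each window was placed on a GGAC copy, so the presence of GGAC in it is not a result. The peaks are longer than most windows and do not locate a methylated base within them.

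Klf13 3′ UTR, all lists: gctgctctgggGGACaccggatgaaa

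Klf13 3′ UTR, nearest the stop codon: ggggcagaacaGGACagctggagaca

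Klf13 3′ UTR, DMSO lists: cacattgtactGGACctgcttctccc

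Klf13 3′ UTR, rhein lists: gaaggataaaaGGACtctaagcccca

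Klf9 CDS, all lists: aagagcttgttGGACctcaacaaata

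Klf9 3′ UTR, at the stop codon: ggtccccggaaGGACagagctcccag

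Klf9 3′ UTR, farthest from the stop codon: ttccacgctcgGGACtaGGACagagc

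Klf5 5′ UTR, rhein lists: tggctgcccgaGGACctcggcggtga

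Klf5 3′ UTR, no GGAC: aggattgttGGGGGGGGGGGaagaaatcgt

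Klf2 3′ UTR, DMSO Pre and DMSO Diff: attGGACcttaGGACagagccGGACa

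On the genome the Klf13 lines lie on the minus strand at chr7:63890457-63890482, chr7:63891126-63891151, chr7:63890693-63890718 and chr7:63889173-63889198, in the order shown. The Klf9 lines lie on the plus strand at chr19:23141947-23141972, chr19:23164943-23164968 and chr19:23165986-23166011. The last of these Klf9 lines is covered by the rhein peak of its stretch and not by the DMSO Diff peak. The Klf5 lines are at chr14:99298796-99298821 and chr14:99313960-99313989, and the Klf2 line is at chr8:72321004-72321029, all on the plus strand.

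DMSO Pre held 8 peaks in 3 of the Klf genes, DMSO MCE 8 peaks in 3 genes, DMSO Diff 9 peaks in 4 genes and rhein MCE 11 peaks in 3 genes. Across all 21728 protein-coding genes, 6.89% had an exonic peak at DMSO Pre, 12.5% at DMSO MCE, 6.67% at DMSO Diff, 7.35% at rhein MCE and 16.5% in any list. The share of all genes marked was thus largest in the longest list, DMSO MCE, while the number of Klf genes marked was 3 or 4 throughout. The lists hold no RNA levels, so these shares cover all annotated genes, expressed in these cells or not. The 36 peaks of the 4 distinct lists fell into 14 separate stretches of transcript. Of these stretches, 4 were listed in all 4 distinct lists, 2 in 3 lists, 3 in 2 lists and 5 in 1 list.

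**Figure D1:**
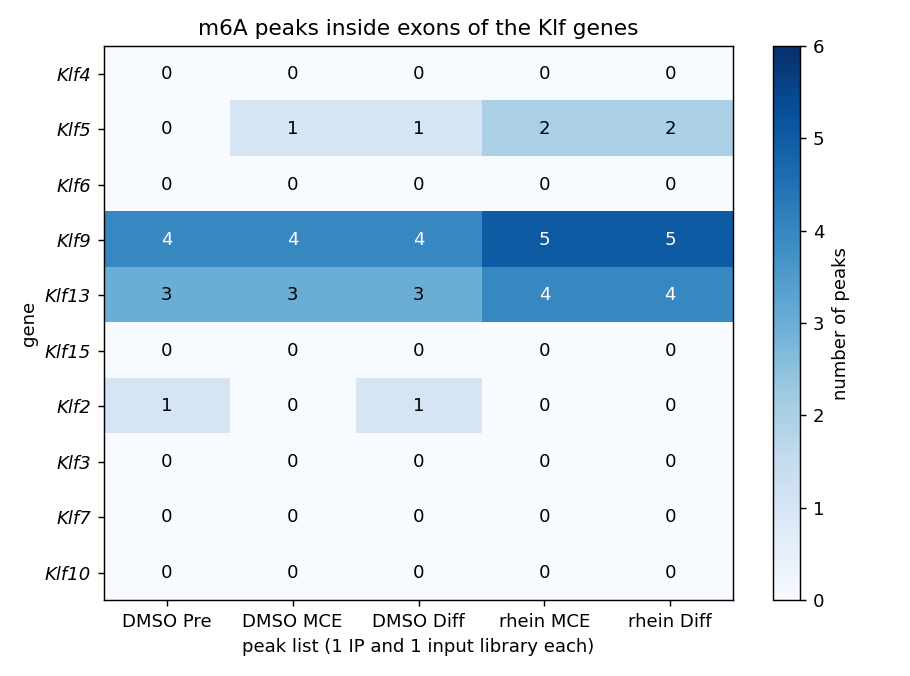
Number of peaks inside exons of each Klf gene (rows) in each of the 5 peak lists (columns), with the number written in each cell and shaded by the scale at the right. Klf9 has 4 peaks in each DMSO list and 5 in the rhein lists, Klf13 has 3 and 4, Klf5 goes from 0 in DMSO Pre to 2 in the rhein lists, and the 6 genes with rows of 0 have none.

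Among the genes reported to promote adipogenesis, 3 of 6 carried a peak, namely Klf5, Klf9 and Klf13. Among the 3 reported to restrain it, Klf2 did. Of all protein-coding genes, 16.5% had an exonic peak in any list. With so few genes the reported roles cannot be compared. Klf9 and Klf13 belonged to the 15.5% of genes with a peak in any list that had one in all lists. Klf9 was also among the 10.6% of such genes with 4 or more peaks in a list, as was Klf13 with rhein. Among the genes with a peak in any list, 41.8% had one at DMSO Pre, 75.6% at DMSO MCE, 40.5% at DMSO Diff and 44.6% at rhein MCE, which sets the scale for the presence of 3, 3, 4 and 3 of the 4 marked Klf genes.

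Klf13 spans 6396 bases of spliced mRNA, of which 5157 are 3′ UTR, and its 5 peak stretches all lay in that 3′ UTR. The most constant of them, at chr7:63890326-63890550, was called with identical ends in all 5 lists. It stood at rank 169 of 2824 by the authors' score at DMSO Pre, 283 of 5128 at DMSO MCE, 255 of 2944 at DMSO Diff and 325 of 3069 at rhein MCE. The score is the 1 value the lists give for a peak. It may follow statistical support in place of the level of methylation, which was not tested, so it was read as an order within a list. This stretch was thus within or close to the upper 10% of each list, with 94.0%, 94.5%, 91.3% and 89.4% of peaks scoring lower. It begins 958 bases after the stop codon.

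The Klf13 stretch nearest the stop codon, at chr7:63891026-63891275, was also called in every list, with ends that moved by 25 bases at most. Here the share of peaks scoring lower was 73.7% at DMSO Pre, 81.5% at DMSO MCE, 45.9% at DMSO Diff and 8.77% at rhein MCE. It stood in the upper part of the DMSO Pre and DMSO MCE lists and near the end of the rhein MCE list, at rank 2799 of 3069.

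The other Klf13 stretches were listed either with DMSO or with rhein. The stretch at chr7:63890601-63890825, which holds 4 copies of GGAC, was listed in all DMSO lists and was absent from the rhein lists. It stood at rank 779 of 2824 in DMSO Pre, 3356 of 5128 in DMSO MCE and 869 of 2944 in DMSO Diff. It was the 1 stretch found in all DMSO lists and not with rhein. With all lists reduced to 2824 peaks, it was lost from DMSO MCE. Farther along the 3′ UTR, a stretch of 50 bases at chr7:63889526-63889575 and one of 200 bases at chr7:63889001-63889200 were listed with rhein alone. Both stood low in the rhein MCE list, at ranks 2711 and 2201 of 3069, and their first bases were 1933 and 2308 bases past the stop codon.

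Klf9, on chromosome 19, had 6 stretches, the most of the family, which covered 31.2% of its transcript of 4486 bases. It was the 1 member with peaks in the 5′ UTR, the coding sequence and the 3′ UTR. The coding stretch, at chr19:23141826-23142050, was called in all lists. A share of 73.4% of peaks scored lower at DMSO Pre, 73.1% at DMSO MCE, 93.1% at DMSO Diff and 65.3% at rhein MCE, so that it ranked highest in DMSO Diff, at 204 of 2944.

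Around the stop codon of Klf9, a stretch of 525 bases at chr19:23164870-23165394 began 42 bases before the last base of the stop codon in every list. It was called as 2 peaks in DMSO Pre (ranks 836 and 2719), 2 in DMSO MCE (943 and 748) and 2 in rhein MCE (688 and 1956). In DMSO Diff it was called as 1 peak of 475 bases at rank 2845 of 2944. The mark at this place was thus listed throughout, while the number of peaks drawn from it and their ranks varied.

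Farther into the Klf9 3′ UTR, the stretch at chr19:23165570-23165769 was listed in DMSO Pre, as 75 bases at rank 500, and in rhein MCE, as 200 bases at rank 1177. The next one, at chr19:23165795-23166019, was listed in DMSO Diff, as 125 bases at rank 449, and in rhein MCE, as 225 bases at rank 855. The rhein peak reached over 2 copies of GGAC that lie beyond the end of the DMSO Diff peak. In the 5′ UTR of Klf9, DMSO MCE had a peak of 100 bases at chr19:23141276-23141375 (rank 2332) and DMSO Diff one of 125 bases at chr19:23141401-23141525 (rank 396). These did not overlap, and neither DMSO Pre nor the rhein lists had a peak there.

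Of the genes with any peak in DMSO Pre, 7.41% had as many as the 4 of Klf9. In rhein MCE, 4.01% had as many as its 5. For Klf13, the corresponding shares were 14.4% at 3 peaks in DMSO Pre and 7.89% at 4 peaks in rhein MCE.

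Klf5, the factor that follows C/EBP-beta and C/EBP-delta early in adipogenesis, had no peak in DMSO Pre. The DMSO MCE list had a 3′ UTR peak of 75 bases at chr14:99313986-99314060 and rank 545 of 5128. In DMSO Diff the peak had 200 bases and rank 219 of 2944. In rhein MCE it had 225 bases, at chr14:99313886-99314110, and rank 75 of 3069, the best rank of any Klf peak in the 4 distinct lists. The share of peaks scoring lower was 89.4% at DMSO MCE, 92.6% at DMSO Diff and 97.6% at rhein MCE.

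The rhein lists added a second Klf5 peak, of 125 bases at chr14:99298691-99298815, which starts at the first annotated base of the transcript. It stood at rank 78 of 3069 in rhein MCE and rank 76 of 3071 in rhein Diff, and none of the DMSO lists had a peak in the 5′ UTR of Klf5. The 5′ UTR stretch had 72.8% G and C, against 47.9% over the transcript.

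The 3′ UTR stretch of Klf5 differed in composition, with 32.9% G and C, and held a run of 11 G that begins 640 bases after the stop codon. The longest run of G in any other member transcript had 7. Its 225 bases held no GGAC and none of the 3 looser words in which A replaces the first G, the second G or both. Across peaks of 200 to 250 bases on coding transcripts of the rhein MCE list, 12 of 678 (1.77%) lacked all 4 words, compared with 11 of the 80 coding peaks of any length (13.75%) among its 100 highest ranks, where this peak stands. A run of at least 11 G occurred in 0.465% of all its coding peaks. The DMSO MCE peak of 75 bases lies downstream of the run. GENCODE places this stretch in the last exon of Klf5, which ends at 99315036. The RefSeq model of the same build ends at 99313412, and the stretch begins 474 bases beyond that end. With the RefSeq model, Klf5 was left with its rhein 5′ UTR peak and no peak at DMSO MCE or DMSO Diff.

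Klf2, a repressor of Pparg, carried 1 peak in its 3′ UTR, at chr8:72320935-72321109, which began 16 bases after the stop codon. It was called with identical ends in DMSO Pre, at rank 2110 of 2824, and in DMSO Diff, at rank 2580 of 2944. Its standing was low in both, with 25.3% and 12.4% of peaks scoring lower. The 175 bases held 3 copies of GGAC, all within the 26 bases shown above. DMSO MCE, although the longest list, had no Klf2 peak, and neither did the rhein lists. A missing peak means that none was called, and how far depth, RNA level and methylation each enter that was not tested. Because RNA came from whole cultures, fewer cells of a type and less RNA per cell cannot be told apart either.

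**Figure D2:**
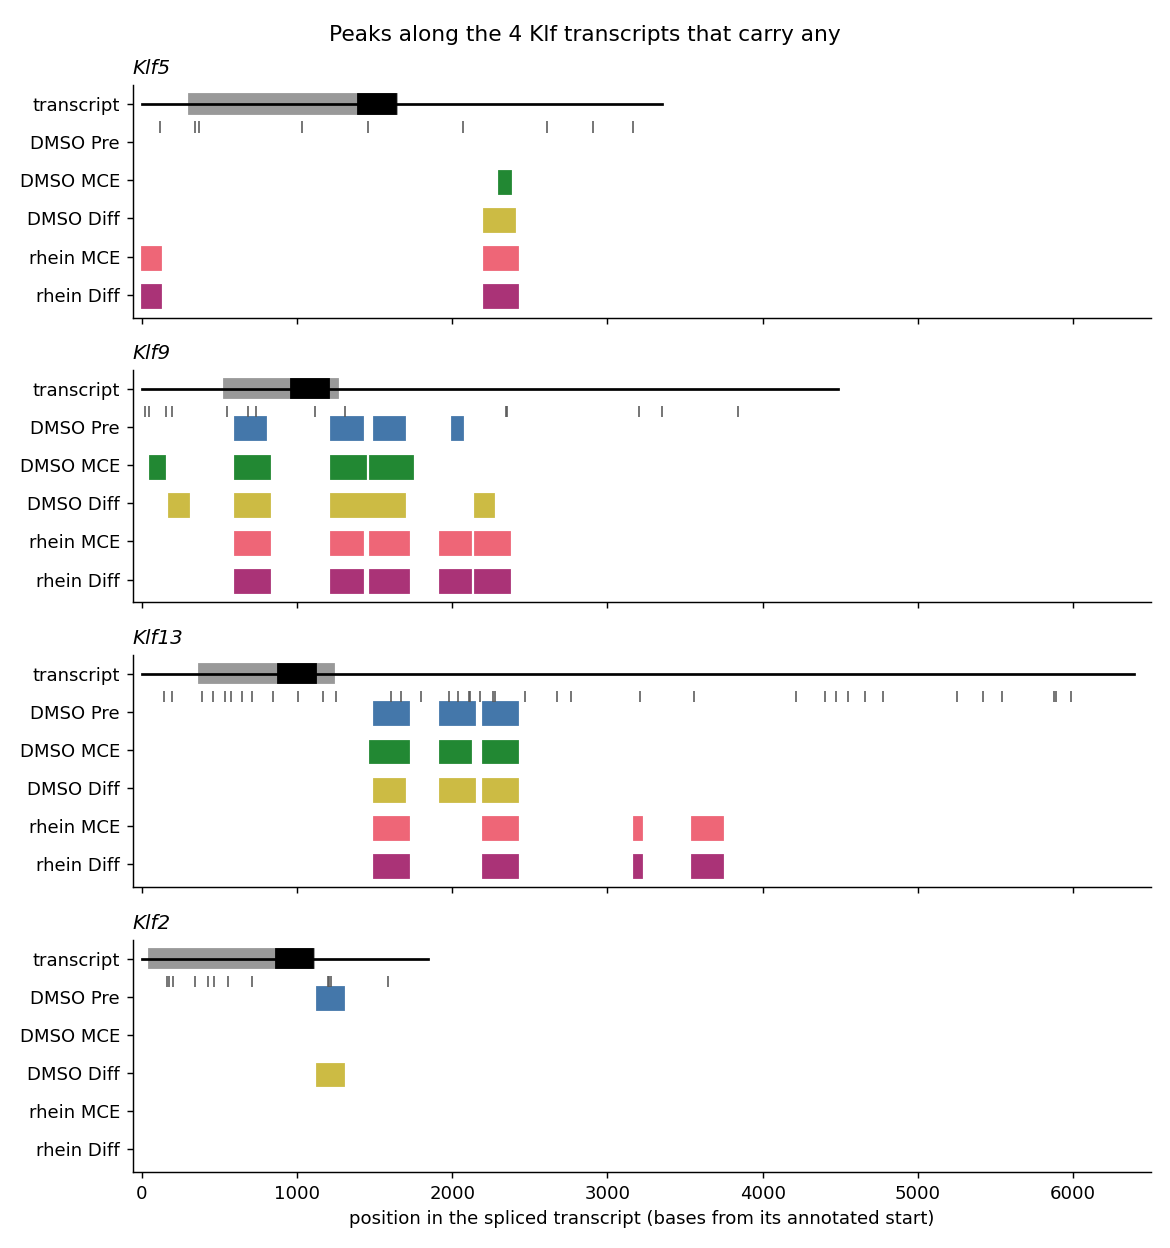
Peaks along the spliced transcripts of Klf5, Klf9, Klf13 and Klf2, by list, with the position in bases from the annotated start on the x axis. The line is the transcript, the grey box the coding sequence, the black box the stretch that codes for the zinc fingers and the ticks are GGAC copies. No coloured peak lies under a black box, and most peaks lie to its right.

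Most of these peaks lay in the 3′ UTR. In DMSO Pre, 7 of 8 Klf peaks had their midpoint there, against 40.2% of all peaks on coding transcripts. DMSO MCE had 6 of 8 there against 39.1%, DMSO Diff 7 of 9 against 39.6%, and rhein MCE 9 of 11 against 40.5%. Over the 4 distinct lists, 29 of 36 peaks (80.6%) were in the 3′ UTR, 4 in the coding sequence and 3 in the 5′ UTR. Peaks of 1 gene recur across lists, so these 36 are not independent, and Klf13 and Klf9 supplied most of them. The 3′ UTR makes up 5157 of the 6396 bases of Klf13 and 3222 of the 4486 of Klf9. In Klf5 it is 1707 of 3352 bases and in Klf2 737 of 1847. The shares of all coding peaks do not allow for this make-up, and how far it accounts for the difference was not tested.

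Few of the Klf peaks were close to the stop codon, the place where m6A is known to gather. In DMSO Pre, 2 of 8 had their midpoint within 200 bases of it, against 21.4% of all coding peaks. The numbers were 1 of 8 against 24.4% in DMSO MCE, 2 of 9 against 23.5% in DMSO Diff and 1 of 11 against 22.6% in rhein MCE. With so few peaks these shares cannot be told from those of the whole lists.

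The zinc fingers were considered separately. A search of each translated coding sequence for the C2H2 pattern found 3 zinc fingers in all 10 genes, close to the end of the protein, and 0 of the 14 peak stretches overlapped the bases that code for them. These bases make up 6.04% of the 4 marked transcripts, so that few overlaps would be found in any case. The Klf9 coding peak lies upstream of its fingers. In Klf2 the fingers end 6 bases before the end of the coding sequence and the peak begins 16 bases after it.

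GGAC was present in 6 of 8 Klf peaks in DMSO Pre, against 56.5% of all coding peaks. It was present in 5 of 8 against 55.1% in DMSO MCE, 7 of 9 against 52.6% in DMSO Diff and 8 of 11 against 55.9% in rhein MCE. Klf peaks are long, and on average 53.7%, 50.7%, 56.5% and 49.9% of all windows of the same lengths on the same transcripts hold the word. The search read the 4 letters on the mRNA strand only. With the longer word GGACT, which contains GGAC, the numbers were 1 of 8, 1 of 8, 2 of 9 and 3 of 11 peaks. All coding peaks held it in 25.6%, 24.4%, 23.3% and 23.9% of cases in the same order, and windows of the Klf transcripts in 19.4%, 20.8%, 21.9% and 20.7%. For the longer word, the DMSO counts were below the shares of all coding peaks and the rhein MCE count was above. For GGAC every count was above. With so few peaks these shares cannot be told from those of the whole lists.

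Across the transcripts of Klf2, Klf5, Klf9 and Klf13, peaks covered 17.9% of the bases and 20 of the 74 copies of GGAC, or 27.0%. Thus most copies lay outside any peak. The number of copies overlapped between marked and unmarked members. The 4 marked transcripts held 9 to 39 copies (median 13) and the 6 unmarked ones 8 to 29 (median 13.5). Per 1000 bases the median was 4.61 in the marked and 3.54 in the unmarked transcripts, and 3.89 against 2.66 within the 3′ UTR. Klf13 and Klf2, both with 5.43 copies per 1000 bases of 3′ UTR, were above the highest unmarked gene, at 3.51, while Klf9 and Klf5, at 1.86 and 2.34, were not. The 3′ UTR of the marked genes had 737 to 5157 bases (median 2464.5) and that of the unmarked genes 950 to 6266 (median 2301.5). Klf7, with the longest 3′ UTR of the 10 members and 22 copies of GGAC in it, had no peak, and Klf6, with 10 copies in its 3′ UTR, had none.

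Across the DMSO stages, the question was whether the same places were marked. Of the 8 DMSO Pre peaks in Klf genes, 6 shared at least 1 exonic base with a DMSO MCE peak, against 44.8% of all DMSO Pre peaks, and 7 with a DMSO Diff peak, against 38.2%. Of the 8 DMSO MCE peaks, 6 were shared with DMSO Pre (24.8% of the list) and 7 with DMSO Diff (26.0%). With all lists reduced to the length of the shortest, the last number was 4. Of the 9 DMSO Diff peaks, 6 were shared with DMSO Pre (36.1%) and 6 with DMSO MCE (45.8%). Klf13 contributed 3 shared stretches to each of these counts, and Klf9 its coding and stop codon stretches. What differed between the stages was the Klf5 peak, absent from DMSO Pre, the Klf2 peak, absent from DMSO MCE, and the outer stretches of Klf9.

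The comparison of rhein with DMSO asked which places were listed with the drug, without it, or in both. With DMSO MCE, 6 of the 11 rhein peaks had bases in common, against 53.3% of the whole rhein MCE list. Conversely, 6 of the 8 peaks at DMSO MCE overlapped a rhein MCE peak, against 32.0%. At the later stage 7 of 11 rhein peaks overlapped a DMSO Diff peak, against 37.6% of the rhein Diff list, and 6 of 9 DMSO Diff peaks overlapped a rhein peak, against 40.1%. The rhein peaks in these comparisons are the same ones, so the stages are not separate observations. The stretches with a rhein peak and no DMSO peak at any stage were the Klf5 5′ UTR and the far Klf13 3′ UTR stretches, 3 in all. The stretches with a DMSO peak and none with rhein were the Klf13 stretch with 4 copies of GGAC, the Klf2 3′ UTR and both 5′ UTR stretches of Klf9, 4 in all. Counted as peaks, 3 of the 11 in rhein MCE had no partner in any DMSO list, against 32.4% of all its peaks, and 7 of the 25 in the DMSO lists had none in rhein MCE, against 64.8%. Peaks without a partner under the other treatment were therefore common throughout the lists, and the Klf genes did not have a larger share of them. The DMSO lists cover several stages and the rhein list is 1 sample of unknown stage. Differences between stages thus enter these shares together with the treatment.

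**Figure D3:**
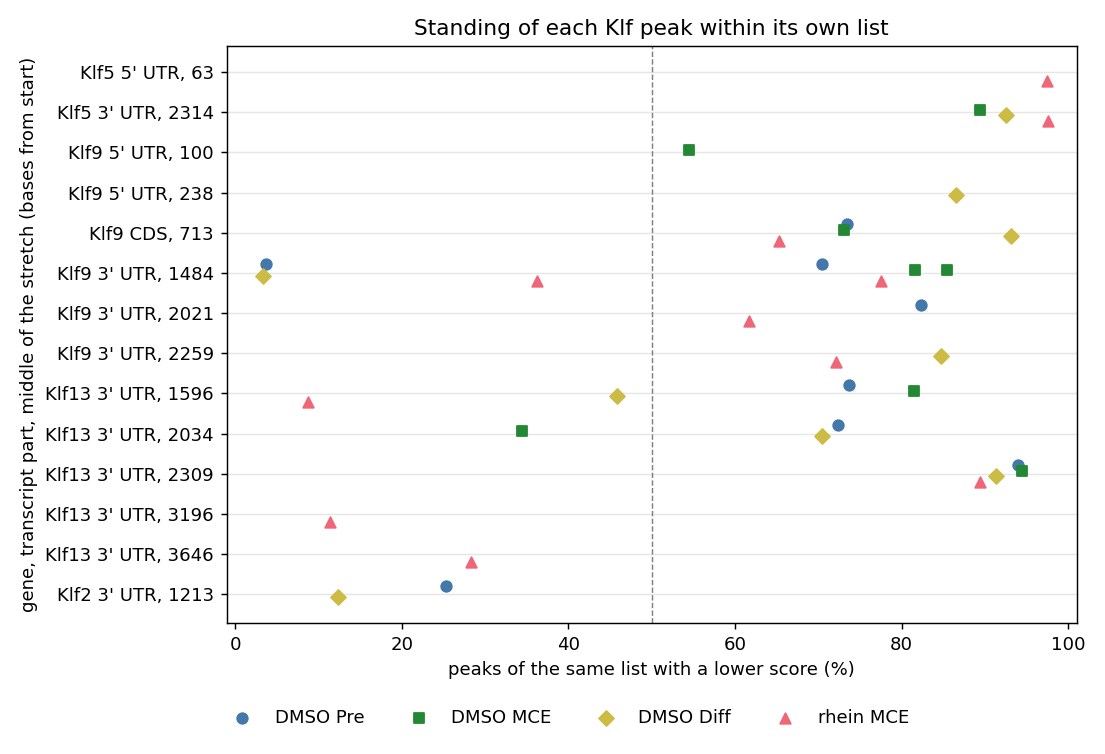
Share of peaks of the same list with a lower score (x axis, percent) for each Klf peak, by stretch (y axis, named by gene, transcript part and middle of the stretch in bases from the transcript start) and list (colour and shape). The Klf13 stretch at 2309 sits between 89.4% and 94.5% in all lists, the rhein peaks of Klf5 sit at 97.5% and 97.6%, and the dashed line at 50% has 26 of the 36 peaks to its right.

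By score, the Klf peaks stood mostly in the upper part of their lists, with 26 of 36 above the middle of the list and 7 in the upper 10%. These 36 come from 14 stretches of 4 genes that recur across lists, so they are not independent. The median share of peaks scoring lower was 72.9% for the Klf peaks of DMSO Pre, 81.5% for those of DMSO MCE, 84.7% for DMSO Diff and 65.3% for rhein MCE, where 50% is the middle of a list by construction. The 7 in the upper 10% were the constant Klf13 stretch in the DMSO lists, the Klf9 coding stretch and the Klf5 3′ UTR stretch in DMSO Diff, and both Klf5 peaks with rhein.

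The gene symbol given beside each peak in the lists did not always name the gene that holds it. Of the 36 Klf peaks, 12 carried the symbol of their Klf gene and 24 another. All Klf13 peaks carried E030018B13Rik, and the Klf9 3′ UTR peaks carried Mir1192. No row with a Klf symbol lay outside the exons of that gene. A reading of the lists by symbol would therefore find Klf2, Klf5 and Klf9 and miss Klf13.

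Relatives and partners were looked up in the same way. Among 16 other KLF and Sp genes, Sp1 and Sp3 carried peaks in any list, near the 16.5% of all protein-coding genes, and Klf1, Klf8, Klf11, Klf12, Klf14, Klf16 and Klf17 carried none. Sp1 had 1 peak at DMSO Pre, 2 at DMSO MCE and 3 at DMSO Diff, Sp3 had 3, 2 and 3, and both had 0 in the rhein lists, where 7.35% of all protein-coding genes had a peak. Among 11 adipogenic genes tied to the family, Cebpb, Cebpd and Ctbp2, 3 in all, were marked in some list, against the same 16.5%. Cebpb had 2, 4, 2 and 5 peaks at DMSO Pre, DMSO MCE, DMSO Diff and rhein MCE, and Cebpd had 1, 3, 1 and 3. Both thus had more at DMSO MCE and with rhein than at DMSO Pre or DMSO Diff. DMSO MCE is also the longest list, and how far that enters was not tested. Ctbp2, a partner of Klf3, had 1 peak at DMSO MCE and 1 at DMSO Diff. Pparg, Cebpa, Dlk1, Slc2a4, Egr2, Gata2, Srebf1 and Ctbp1 had no peak.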

How the data were processed

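MeRIP-seq lists of m6A peaks from 5 conditions of 3T3-L1 cells were used, with 1 IP and 1 input library each. Per the methods of the study and the submitters' processing notes, reads were trimmed with Trim Galore 0.6.5, aligned to mm10 with HISAT2 2.1.0, filtered with Picard 2.23.5 and SAMtools 1.9, and peaks were called with exomePeak2 and annotated with ChIPseeker 1.26. The deposited value of each peak, which the authors' header calls a log2 fold change, reached 735 and was therefore treated as a score and used only to rank peaks within a list. Its lowest value was between 4.19 and 4.32 in each list, near a usual significance limit on a negative log2 scale but not the same in all lists. It may hold adjusted p-values on that scale, which was not tested.

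Peaks were placed on GENCODE M21 transcripts with both ends in exons of the same strand, coding transcripts first and then the longest, and each gene's symbol in the lists was compared with that placement. The transcript part was that of the peak midpoint. A peak was shared when it had at least 1 exonic base in common with a peak of the other list, and overlapping Klf peaks of all lists were joined into stretches. GGAC was searched in the mRNA strand of the GENCODE transcripts. All 10 members are described, ordered by reported role. The members, the lists of related genes and the markers were chosen with earlier results of these data known. No test was run, because 1 list per condition leaves no spread between samples, and the depth of the libraries is not known from the lists. Python 3.11.15, NumPy 2.4.6, pandas 2.3.3, SciPy 1.17.1 and Matplotlib 3.10.9 were used, and placement was tested on simulated peaks. Alternatives were another gene assignment, overlap rule, score limit, list length, annotation, transcript, motif and window. The swap of the rhein lists, the removal of them, and the RefSeq count of peaks were chosen after seeing the data.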

Additional observations from a re-analysis of the deposited data

How the results depend on the processing

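Of 80 values computed under an alternative, 72 stayed within 1.5 times the value reported. With the gene named in the symbol column, the peaks of the Klf genes numbered 12 over the 4 distinct lists in place of 36, with 2 at DMSO Pre, 3 at DMSO MCE, 4 at DMSO Diff and 3 at rhein MCE, and 3 genes were found in place of 4 because Klf13 was lost. With peaks above the median score of their list, rhein MCE kept 7 of its 11 Klf peaks, and Klf2 was lost from DMSO Pre and DMSO Diff. With all lists reduced to 2824 peaks, 4 DMSO MCE peaks in place of 7 were shared with DMSO Diff. With GGACT in place of GGAC, 7 of 36 peaks held the word in place of 26. The RefSeq annotation left 33 of 36 peaks and removed Klf5 from DMSO MCE and DMSO Diff. A midpoint window of 100 bases in place of the whole peak left 22 peaks with GGAC. Without the rhein lists, 4 Klf genes carried a peak. No paired analysis was possible because each condition had 1 IP and 1 input library. With 1 library pair per condition, a peak missing from a list was not called, and how far depth, RNA level and methylation each enter that was not tested.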

Other observations

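Klf7 carried no exonic peak, but its span held 1 peak on the opposite strand. It covered 50 bases at chr1:64079662-64079711 in the DMSO Pre list, at rank 2072 of 2824, inside an exon of Gm13748, a gene annotated as antisense to Klf7, and the list gave it the symbol Mir6899. No other list had a peak there. This peak was not counted among those of Klf7.

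The 5′ UTR stretch of Klf9 at chr19:23141276-23141375 resembled the Klf5 3′ UTR stretch in holding no GGAC and none of the 3 looser words, but it had 74.0% G and C. It is 100 bases long, and 23.3% of all windows of that length on the Klf9 transcript lack these words, against 3.55% of windows of 225 bases on the Klf5 transcript.

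Over all coding peaks, 13.2% of those at DMSO Pre, 14.9% of those at DMSO MCE and again at DMSO Diff, and 14.2% of those at rhein MCE held none of the 4 words. Among peaks of 200 to 250 bases the number was 7 of 635 at DMSO Pre, 10 of 1138 at DMSO MCE, 10 of 578 at DMSO Diff and 12 of 678 at rhein MCE.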
